A study of Arabidopsis thaliana with 15 samples.

Results

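Seedlings of Arabidopsis thaliana given 10 µM cercosporin were compared with seedlings given 0.1 µM, across all genes that passed a filter on low counts. The comparison used 6 of the 15 libraries of the series, 3 at 10 µM and 3 at 0.1 µM, and 10374 of the 14190 genes in the count table were tested. Members were chosen by dose label alone. All plants were whole seedlings of the wild-type accession Col-0, 2 weeks old, grown on upright plates with sucrose. Those of both doses stood in cercosporin in darkness for 1 h, were rinsed in water 3 times, and were given 30 min of light at 30 µE. Both groups had the same light regime and differed in the dose given. The untreated control plates stayed in light throughout, so a comparison of either dose with them joins the toxin with the dark period. Besides their part in the spread and in the code digit term given below, they served only as a side reference. The labels do not say whether the 3 libraries of a dose came from separate cultures, so the p-values reflect only how much libraries of a group varied. That variation may be technical. For genes, the spread was shared over all 15 libraries, the controls and the other doses included.

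Cercosporin is a red pigment toxin of Cercospora leaf-spot fungi. In light it passes energy to oxygen and yields singlet oxygen and other reactive oxygen species, and in darkness it is much less harmful. In plants, singlet oxygen is known for fast transcript responses that include ethylene response factors (ERFs), which bind promoters of defence and stress genes, zinc finger factors of the ZAT family and enzymes of jasmonate synthesis. Root hairs, the tip-growing outgrowths of root epidermal cells, build a wall rich in extensins, which are hydroxyproline-rich proteins that peroxidases cross-link.

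Library totals were 1574746, 3284617 and 4554702 counts at 10 µM, against 3564426, 2649749 and 2613168 counts at 0.1 µM. Across genes, which are no independent replicates, Pearson's r of log2 levels lay between 0.965 and 0.974 within 10 µM, between 0.972 and 0.974 within 0.1 µM and between 0.955 and 0.975 across the doses. These ranges overlapped. Replicate 1 of 10 µM, the smallest of the 6 libraries, stood apart at 40.3 on the first principal component of these libraries, which held 32.5% of the variance and put the others between -23.4 and 7.8. The sample codes in the labels begin with the digit 8 in all 3 libraries of 10 µM and with 7 in all 3 of 0.1 µM, and what the digit stands for is not stated. Among the controls, replicate 2 has the digit 8 and replicates 1 and 3 have 7. The dose and the digit can be told apart only through the controls. Every estimate below with the code digit as a term thus rests on control replicate 2 set against control replicates 1 and 3. Both green shoot and root marker transcripts were present in each library, as the label whole seedlings implies.

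Between these doses few genes passed the test. By edgeR's quasi-likelihood test with Benjamini-Hochberg adjustment, 2 genes were higher at 10 µM, which is 0.0193% of those tested, and 9 were lower, which is 0.0868%. The transcription factor gene ERF105 was higher, and genes of the root hair wall were among those that were lower. So was 1 gene of the light-harvesting antenna, LHCB2.1, whose call is uncertain for a reason given below. Adjusted p-values of the 11 genes lay between 0.00189 and 0.0335, and each gene changed by more than 1 on the log2 scale. At an unadjusted p under 0.05, 350 genes were higher (3.37%) and 327 were lower (3.15%). Counts of list members at this level below are to be read beside these shares, and their medians beside -0.001 over all genes tested. The median absolute log2 change over all genes tested was 0.2.

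**Figure D1:**
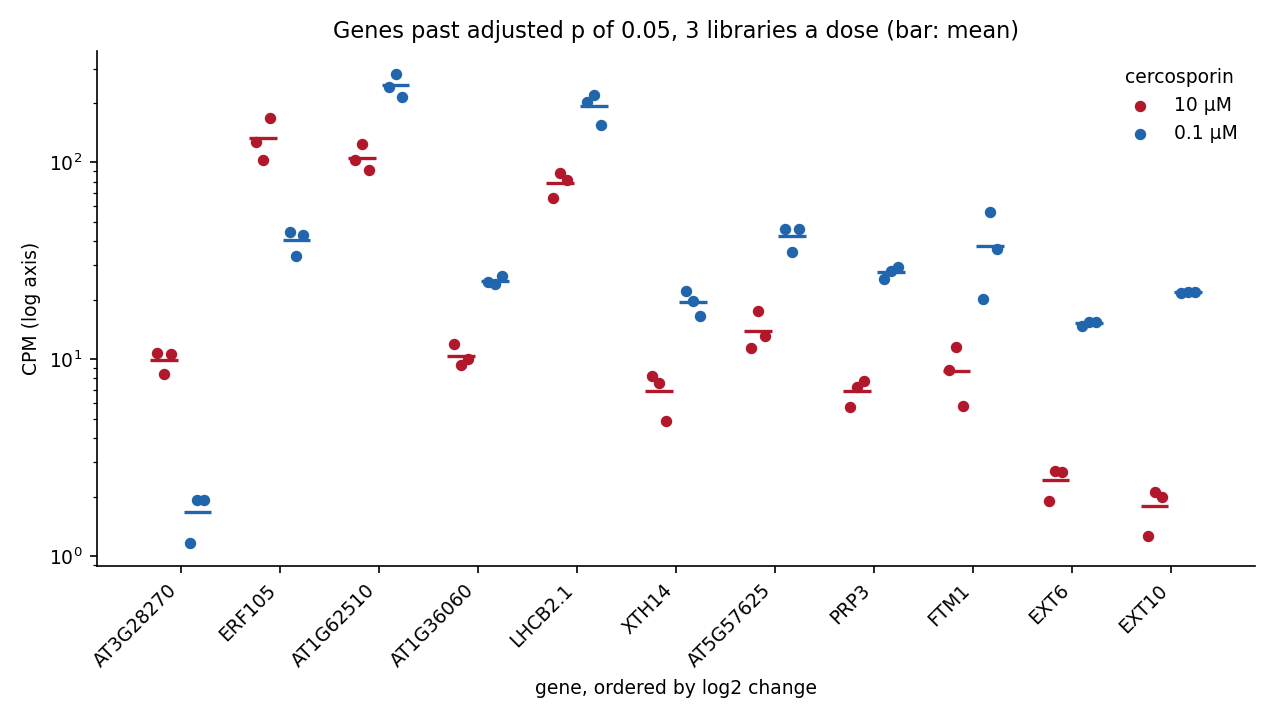
Level of each of the 11 genes past the threshold in each library, in CPM on a log axis, with 10 µM left of 0.1 µM; each point is 1 library and each bar the mean of 3. The libraries of the 2 doses do not overlap for any of these genes. Of all genes tested, 7.27% lie higher at 10 µM without overlap and 7.31% lower.

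Levels are in CPM, the counts scaled to a common library total with trimmed-mean (TMM) factors. Changes are edgeR's log2 ratios of 10 µM over 0.1 µM. The standard error (SE) beside a change was worked back from it and the test's F statistic, so it restates the test. In the main fit it draws on the spread of all 15 libraries. Levels of different genes are not compared with one another.

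Transcripts of root hair wall proteins were the clearest group that was lower at 10 µM. The list held 16 genes, of which 14 were in the table and 13 were tested. Of these, 4 fell at 10 µM, none rose, and 12 were lower at an unadjusted p under 0.05, where 3.15% of all genes tested were. The median log2 change of the 13 was -1.96, beside -0.001 over all genes tested. In 12 of the 13 the libraries of 10 µM all lay below those of 0.1 µM, where 7.31% of all genes tested did. The list was chosen with earlier results of these data known, and the share is a description.

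EXT10 (AT5G06640), an extensin, had 1.26, 2.12 and 2.00 CPM at 10 µM, against 21.7, 22.0 and 21.9 CPM at 0.1 µM. Every library of 10 µM was far below every library of 0.1 µM, and the libraries of 0.1 µM were nearly equal. The log2 change was -3.49 ± 0.54 (SE, n = 3 per dose; adjusted p = 0.0216). These levels rest on 2, 7 and 9 counts at 10 µM and on 74, 57 and 57 counts at 0.1 µM.

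EXT6 (AT2G24980), a second extensin, had 1.90, 2.72 and 2.66 CPM at 10 µM, against 14.7, 15.5 and 15.4 CPM at 0.1 µM, a log2 change of -2.56 ± 0.44 (adjusted p = 0.0216). Its transcript end is nearly identical to that of the extensin gene AT5G06630, so reads of the pair may be split between them. AT5G06630 itself had 0, 4.23 and 5.32 CPM at 10 µM and 16.7, 22.0 and 26.1 CPM at 0.1 µM, and missed the threshold (adjusted p = 0.0506). The sum of both genes stood at 1.91, 6.96 and 8.04 CPM at 10 µM, against 31.6, 37.1 and 41.3 CPM at 0.1 µM. That sum fell by 2.54 ± 0.38 on the log2 scale (adjusted p = 0.0135), so the call did not rest on how the reads were divided.

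PRP3 (AT3G62680), a proline-rich wall protein of root hairs, had 5.69, 7.25 and 7.76 CPM at 10 µM, against 25.5, 28.2 and 29.6 CPM at 0.1 µM. Its change was -1.96 ± 0.33 (adjusted p = 0.0216). XTH14 (AT4G25820), an enzyme that cuts and rejoins xyloglucan chains of the wall, had 8.22, 7.56 and 4.88 CPM at 10 µM, against 22.3, 19.7 and 16.5 CPM at 0.1 µM. Its change was -1.56 ± 0.29 (adjusted p = 0.0335). For both genes the highest library of 10 µM stayed below the lowest of 0.1 µM.

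The remaining members of the list did not pass. The extensins EXT12 (AT4G13390), EXT11 (AT5G49080) and AT4G08400 had log2 changes of -2.18 ± 0.52, -2.16 ± 0.50 and -2.08 ± 0.44. AT4G08400 has a near-identical copy, AT4G08410, whose own change was -2.73 ± 0.57 (adjusted p = 0.0775). Summed, this pair had 3.81, 5.75 and 2.90 CPM at 10 µM, against 18.3 to 24.1 CPM at 0.1 µM, and the sum passed at -2.40 ± 0.45 (adjusted p = 0.0415). LRX1 (AT1G12040), a leucine-rich repeat extensin needed for root hair shape, changed by -1.68 ± 0.44 (adjusted p = 0.201). The wall-loosening expansins EXPA18 (AT1G62980) and EXPA7 (AT1G12560) changed by -1.59 ± 0.49 and -1.12 ± 0.42, and the proline-rich protein gene AT5G05500 by -0.74 ± 0.35. LRX2 (AT1G62440), a relative of LRX1, was the only tested member without a fitted decrease, at 0.19 ± 0.31. COBL9 (AT5G49270), a membrane-anchored protein of root hair tips, did not pass the count filter and had 1.26, 1.21 and 1.55 CPM at 10 µM and 0.294, 3.09 and 3.84 CPM at 0.1 µM.

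The promoters of several of these genes hold the core of the root hair element, a sequence known to drive expression in root hair cells, and are shown because the genes they precede belong to the root hair wall list. The core was searched on both strands of the 250 bases before each gene start as TG, then 3 or 4 bases of any kind, then G or T, then CACG. It was present in 5 of the 12 tested list members with a promoter in the reference (41.7%), against 1130 of 27443 promoters of protein-coding genes, tested or not (4.12%). The list was picked for root hair genes, so this share is a description and does not bear on dose. Of the 7 matches in the list, 0 overlapped a GCC box (GCCGCC) or a W box (TTGACC or TTGACT), which were searched as well. Those boxes were in 0 and 3 of the 12 promoters, against 1.87% and 28.4% of all promoters. The windows below are from RefSeq (TAIR10.1), on the plus strand, which is the gene strand in each case, with the match in capitals. LRX1 and EXPA7 each hold a second match, farther from the start, that is not shown. The build behind the counts is not given, and a match describes these letters only.
PRP3, 165 to 155 bases before the gene start (chr3:23182537-23182587): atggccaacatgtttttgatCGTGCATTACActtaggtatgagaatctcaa
LRX1, 91 to 82 bases before the start (chr1:4069881-4069930): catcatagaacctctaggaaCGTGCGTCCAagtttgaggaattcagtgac
EXPA7, 74 to 64 bases before the start (chr1:4276411-4276461): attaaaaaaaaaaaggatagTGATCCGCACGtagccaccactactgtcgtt
EXPA18, 36 to 27 bases before the start (chr1:23331507-23331556): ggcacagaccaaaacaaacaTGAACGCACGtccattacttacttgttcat
AT5G05500, 127 to 117 bases before the start (chr5:1629463-1629513): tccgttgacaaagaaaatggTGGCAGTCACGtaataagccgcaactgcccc
The PRP3 and LRX1 matches are on the strand opposite to the gene and the other 3 on the gene strand. Of the 4 list members that fell, PRP3 holds a match, and EXT10, EXT6 and XTH14 hold none. The other 4 genes shown did not pass.

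Genes of the same kind outside the list are given as values, since they were picked after their values were seen. RefSeq names 12 tested genes as extensin-like family proteins, and members of the list such as EXT10, EXT6, EXT12, AT4G08400 and AT5G06630 are among these 12. Of the 12, 2 fell, EXT10 and EXT6, both of the list. In all, 9 of the 12 were lower at an unadjusted p under 0.05, and the median log2 change was -2.04. These counts partly repeat those of the list. Outside the list, AT3G54580 had 13.9, 24.8 and 10.9 CPM at 10 µM, against 73.4, 54.1 and 71.1 CPM at 0.1 µM (adjusted p = 0.0792). HRGP1 (AT3G54590), a hydroxyproline-rich glycoprotein, had 16.4, 9.67 and 6.65 CPM at 10 µM, against 43.5, 32.1 and 37.3 CPM at 0.1 µM (adjusted p = 0.129). AGP3 (AT4G40090), an arabinogalactan protein of the cell surface, had at most 16.6 CPM at 10 µM, against 35.2, 36.7 and 32.3 CPM at 0.1 µM (adjusted p = 0.0775). None of these 3 genes overlapped between the doses, where 7.31% of all genes tested lay lower without overlap, and none passed. Of 41 tested genes named as peroxidase superfamily proteins, 0 passed, 0 were higher and 8 lower at an unadjusted p under 0.05. The lowest of them, AT1G44970, had 0.632, 0.907 and 0.887 CPM at 10 µM (1, 3 and 4 counts), against 6.46, 6.18 and 4.23 CPM at 0.1 µM (22, 16 and 11 counts), with an adjusted p of 0.0686.

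Markers of other root tissues gave no call. Of 17 root markers outside the root hair, 13 were in the table and 11 were tested. None passed, 7 were lower and 0 higher at an unadjusted p under 0.05, where 3.15% of all genes tested were lower. The median log2 change of these markers was -0.74. Their summed level was 204.9, 254 and 164 CPM at 10 µM, against 392, 303 and 324 CPM at 0.1 µM, and no marker in the table was at 0 in all 6 libraries. ESB1 (AT2G28670), a dirigent-like protein of the Casparian strip, had 35.4, 45.3 and 23.7 CPM at 10 µM, against 81.3, 63.8 and 77.6 CPM at 0.1 µM. Its change was -1.1 ± 0.25 (adjusted p = 0.118). The Casparian strip proteins CASP2 (AT3G11550) and CASP1 (AT2G36100) changed by -1.0 ± 0.35 and -0.74 ± 0.28, and the endodermal peroxidase PER64 (AT5G42180) by -0.86 ± 0.27. The nitrate transporters NRT1.5 (AT1G32450) and NRT2:1 (AT1G08090) changed by -1.56 ± 0.64 and -0.62 ± 0.23. SCR (AT3G54220), the SCARECROW factor of the endodermis, and PHO1 (AT3G23430), which loads phosphate into the xylem, overlapped between the doses at -0.29 ± 0.32 and 0.09 ± 0.31. The summed root hair markers LRX1, EXPA7, EXPA18, COBL9 and PRP3 stood at 19.6, 16.9 and 18.4 CPM at 10 µM, against 49.0, 63.4 and 58.4 CPM at 0.1 µM. The part of the root markers in the change of the root hair genes was not tested. In whole seedlings, fewer cells of a type and less RNA per cell cannot be told apart.

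**Figure D2:**
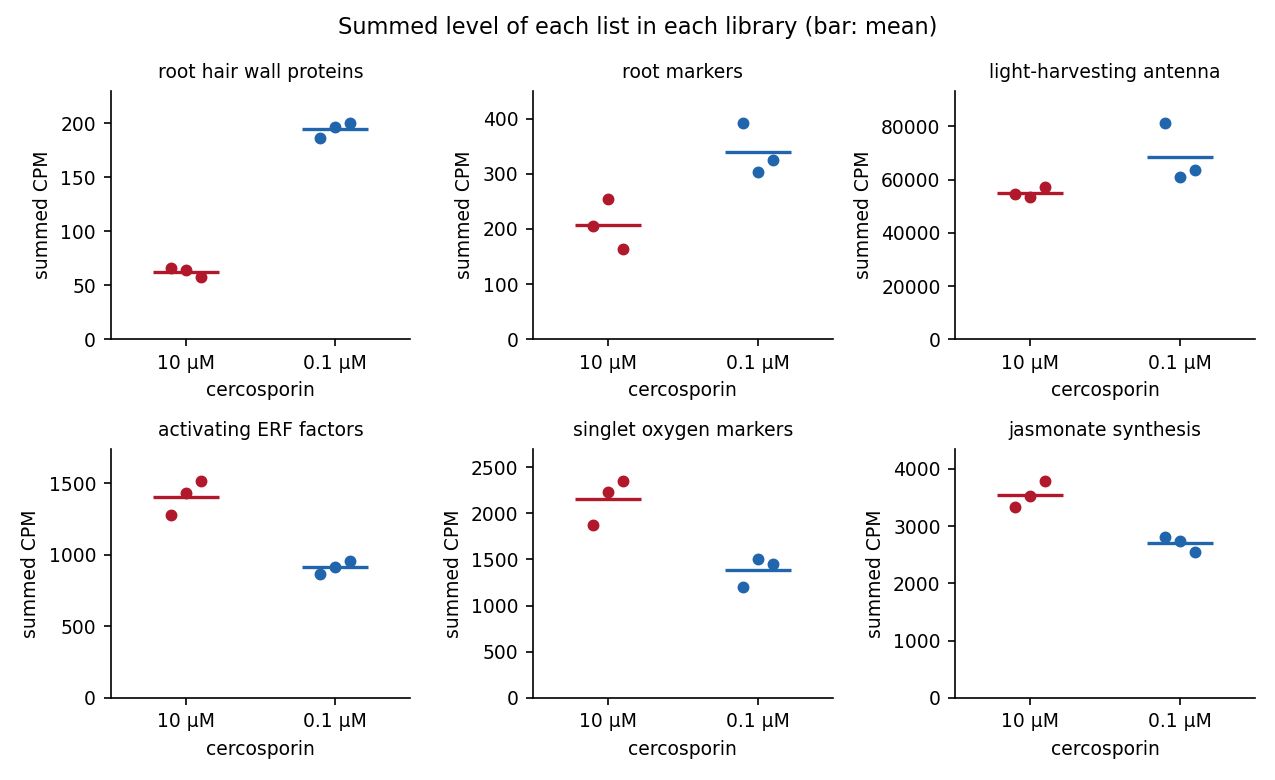
Summed CPM of 6 gene lists in each library, with 10 µM left of 0.1 µM; each point is 1 library and each bar the mean of 3, and all axes start at 0. The root hair wall list sums to 57.9 to 65.8 CPM at 10 µM and 186.5 to 200.1 CPM at 0.1 µM, and no list shown overlaps between the doses. Some lists not shown do overlap, such as heat shock, at 411.7 to 736.1 CPM at 10 µM and 492.9 to 630.7 CPM at 0.1 µM.

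Aquaporins, the water channels, held 0 calls among 17 tested members, with 4 lower and 1 higher at an unadjusted p under 0.05. The vacuolar channel TIP2 (AT3G26520) had 2301, 2104.5 and 2019 CPM at 10 µM, against 3272, 3086 and 3397 CPM at 0.1 µM, with a change of -0.60 ± 0.12 (adjusted p = 0.0675). TIP2;3 (AT5G47450), another vacuolar channel, had 20.2, 30.5 and 19.3 CPM at 10 µM, against 64.6, 54.1 and 50.7 CPM at 0.1 µM (adjusted p = 0.324). PIP1A (AT3G61430) and TIP2;2 (AT4G17340) both changed by -0.65, and PIP2E (AT2G39010) by 0.46 ± 0.16, without passing. The list's median of -0.23 lay below that of all genes.

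ERF105 (AT5G51190), an activating ERF known from cold, stress and defence responses, had the smallest p of all genes. Its level was 127, 103 and 169 CPM at 10 µM, against 44.3, 33.6 and 42.6 CPM at 0.1 µM. Every library of 10 µM lay well above every library of 0.1 µM. The log2 change was 1.72 ± 0.21 (adjusted p = 0.00189), on 201, 340 and 762 counts at 10 µM and 151, 87 and 111 counts at 0.1 µM. In the RefSeq annotation the 3' end of ERF105 lies within AT5G51180 on the opposite strand. Whether counting used strand is not given in the sources used here, so reads of that pair cannot be told apart. The same limit holds for CT-BMY, ESB1, EXPA7, NRT1.5, CASP1, PER64, RRTF1, WRKY40, WRKY33 and LHCB1.3, whose 3' ends lie within another gene. With the code digit as a term, the change was 1.74 ± 0.39 and did not pass (adjusted p = 0.0945).

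Other activating ERF genes were mostly higher at 10 µM without passing. Of 14 activating ERF genes, 12 were tested, 1 rose (ERF105), and 7 in all were higher at an unadjusted p under 0.05, with 0 lower. At that level 3.37% of all genes tested were higher. The median log2 change of the 12 was 0.64, beside -0.001 over all genes tested. ERF13 (AT2G44840) had 35.4, 81.6 and 60.5 CPM at 10 µM, against 19.4, 24.0 and 26.1 CPM at 0.1 µM, and narrowly missed the threshold at 1.38 ± 0.27 (adjusted p = 0.058). Its lowest library of 10 µM was replicate 1, and without that library the change was 1.63 and passed (adjusted p = 0.0309). Without any other library of the 2 doses it did not pass, and a term for the code digit gave 1.02 ± 0.46 (adjusted p = 0.43). ERF5 (AT5G47230), ERF6 (AT4G17490) and ERF104 (AT5G61600), close relatives with roles in defence, changed by 1.12 ± 0.33, 0.88 ± 0.25 and 0.74 ± 0.21. RRTF1 (AT4G34410), a redox-responsive factor, had 36.7, 31.4 and 27.5 CPM at 10 µM, against 15.6 to 21.1 CPM at 0.1 µM (adjusted p = 0.423). AT5G61590, a further member, had 12.0, 11.2 and 11.1 CPM at 10 µM, against 15.6, 12.4 and 12.7 CPM at 0.1 µM, a fitted change of -0.26 ± 0.31 with all libraries of 10 µM below those of 0.1 µM (adjusted p = 0.999). ORA59 (AT1G06160), which joins ethylene and jasmonate signals, overlapped between the doses at 0.04 ± 0.29.

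Markers of singlet oxygen gave no call. All 15 were tested, 14 had a fitted increase, and 0 were lower at an unadjusted p under 0.05. At that level 9 of the 15 were higher, beside 3.37% of all genes tested. In 8 of the 15 the libraries of 10 µM all lay above those of 0.1 µM, where 7.27% of all genes tested did. The median log2 change of the list was 0.50. ZAT10 (AT1G27730), a zinc finger repressor of stress responses, had 546, 575 and 687 CPM at 10 µM, against 273, 329 and 301 CPM at 0.1 µM, a change of 1.0 ± 0.21 (adjusted p = 0.0775). With the code digit as a term its change was 0.21 ± 0.29 (adjusted p = 0.861). BAP1 (AT3G61190), a cell death suppressor that is a standard marker of singlet oxygen, had 126, 115 and 119 CPM at 10 µM, against 59.0, 83.9 and 112 CPM at 0.1 µM (adjusted p = 0.784). The doses were close in BAP1, where the highest library of 0.1 µM nearly met the lowest of 10 µM. WRKY40 (AT1G80840) and WRKY33 (AT2G38470), factors of the immune response, changed by 0.94 ± 0.25 and 0.64 ± 0.28, ZAT12 (AT5G59820) by 0.68 ± 0.20 and ERF4 (AT3G15210), a repressor, by 0.38 ± 0.13. AT3G28580, an AAA-type ATPase widely used as a singlet oxygen reporter, changed by 0.25 ± 0.36, and BAP2 (AT2G45760) by -0.56 ± 0.67. ERF5, ERF6, LOX3 and LOX4 stand on this list and also on those of the ERFs or of jasmonate synthesis.

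Jasmonate synthesis likewise held 0 calls among 14 tested genes, with 7 higher and 1 lower at an unadjusted p under 0.05 and a median log2 change of 0.41. LOX2 (AT3G45140), the lipoxygenase that feeds most wound-induced jasmonate, had 172, 191 and 223.5 CPM at 10 µM, against 65.5, 133 and 58.4 CPM at 0.1 µM, a change of 1.2 ± 0.30 (adjusted p = 0.184). AOS (AT5G42650), allene oxide synthase, had 729.8, 642 and 852 CPM at 10 µM, against 492, 422 and 384.5 CPM at 0.1 µM (adjusted p = 0.18). AOC2 (AT3G25770), the allene oxide cyclase that follows AOS, changed by 0.71 ± 0.20. KAT2 (AT2G33150), a thiolase of the last oxidation steps, was the member with a lower value at an unadjusted p under 0.05, at -0.32 ± 0.14. Of 20 tested genes of jasmonate signalling and breakdown, 3 were higher at an unadjusted p under 0.05, and the receptor-target repressors JAZ1 (AT1G19180) and JAZ5 (AT1G17380) overlapped between the doses. CORI3 (AT4G23600), a coronatine-induced transaminase-family protein and jasmonate response gene, had 29.7, 31.7 and 35.9 CPM at 10 µM, against 12.6, 15.1 and 12.3 CPM at 0.1 µM. Its change of 1.29 ± 0.26 did not pass (adjusted p = 0.0686).

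**Figure D3:**
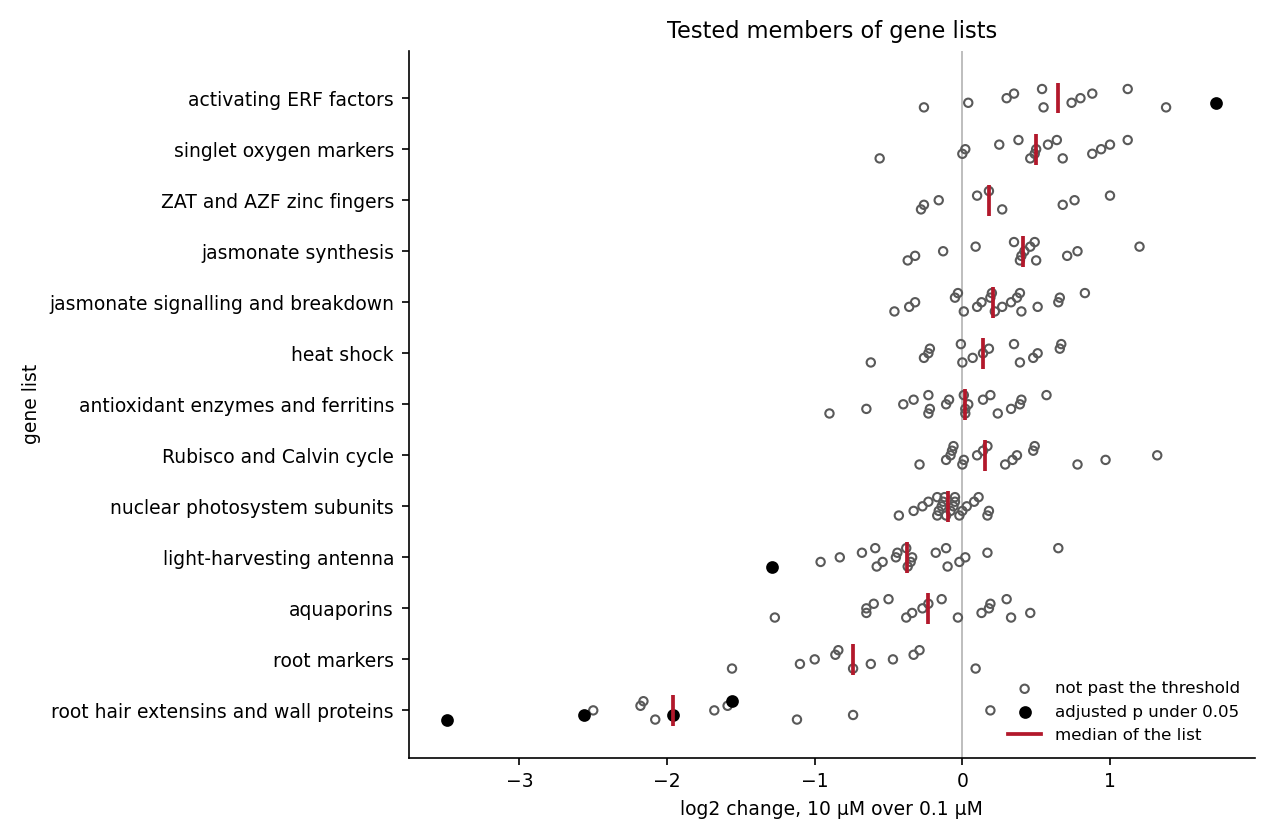
Log2 change of 10 µM over 0.1 µM for each tested member of 13 gene lists; filled points passed an adjusted p of 0.05, open points did not, and the vertical bar is the list's median. Most activating ERF and singlet oxygen genes lie right of 0, and 12 of 13 root hair wall genes lie left of 0, with a median of -1.96.

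Among the lists for antenna, photosystem subunits and carbon fixation, the light-harvesting antenna held the only call. Of 20 antenna genes tested, 1 fell, 9 in all were lower and 0 higher at an unadjusted p under 0.05, and 17 had a fitted decrease, with a median log2 change of -0.37. At that level 3.15% of all genes tested were lower. Of 22 nuclear genes for photosystem subunits, 0 passed, 0 reached an unadjusted p under 0.05 in either direction, 17 had a fitted decrease, and the median was -0.10. The antenna list summed to 54513, 53467 and 57302 CPM at 10 µM, against 81329.9, 60893 and 63493 CPM at 0.1 µM. Replicate 1 of 0.1 µM stood above the other libraries in this sum, as it did in the summed photosystem list, with 50795 to 55908 CPM at 10 µM and 67528, 54519 and 52863 CPM at 0.1 µM. The difference between the lists was not tested. LHCB2.1 (AT2G05100), an antenna protein of photosystem II, had 65.8, 88.2 and 81.8 CPM at 10 µM, against 202, 221 and 156 CPM at 0.1 µM, a change of -1.29 ± 0.21 (adjusted p = 0.0216). It has a near-identical transcript end in LHCB2.2 (AT2G05070), which changed by -0.83 ± 0.20 (adjusted p = 0.159). The sum of the 3 LHCB2 genes changed by -0.63 ± 0.19 and did not pass (adjusted p = 0.347), so the call for LHCB2.1 is uncertain.

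Other antenna genes were lower without passing. LHCB1.1 (AT1G29920) had 525, 729 and 906 CPM at 10 µM, against 1482, 1552 and 1170.5 CPM at 0.1 µM (adjusted p = 0.0775). It also has near-identical copies, and the sum of the 5 LHCB1 genes changed by -0.36 ± 0.16 (adjusted p = 0.715). LHCB1.3 (AT1G29930), a close copy, overlapped between the doses at 0.02 ± 0.16. Green shoot markers, RBCS1A and LHCB1.3 among them, summed to 35398 to 37613 CPM at 10 µM, against 36304 to 42570 CPM at 0.1 µM, with 0 of 7 past the threshold, 1 lower at an unadjusted p under 0.05 and a median change of -0.29. Markers of guard cells and the stomatal lineage summed to 73.4 to 77.8 CPM at 10 µM, against 88.0 to 104 CPM at 0.1 µM, with 0 of 3 tested past the threshold and a median of -0.24. The part of these tissues in the antenna values was not tested.

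Some genes of carbon fixation and starch use were higher at 10 µM without passing. RBCS1B (AT5G38430), a small subunit of Rubisco, had 2013, 1374 and 1573 CPM at 10 µM, against 764, 611 and 604 CPM at 0.1 µM, a change of 1.32 ± 0.29 (adjusted p = 0.0792). The other small-subunit genes RBCS1A (AT1G67090), RBCS3B (AT5G38410) and RBCS2B (AT5G38420) overlapped between the doses at -0.06, 0.00 and 0.34. CP12-2 (AT3G62410), a small regulator of the Calvin cycle, had 306, 278 and 285 CPM at 10 µM, against 171.5, 131 and 142.5 CPM at 0.1 µM (adjusted p = 0.118). In the Rubisco and Calvin cycle list 0 of 18 passed, 4 were higher and 0 lower at an unadjusted p under 0.05, and the median was 0.16. CT-BMY (AT4G17090), a chloroplast beta-amylase that releases maltose from starch, had 382, 437 and 662.5 CPM at 10 µM, against 220.5, 229 and 259.7 CPM at 0.1 µM, a change of 1.07 ± 0.21 (adjusted p = 0.058). No library of CT-BMY, CP12-2 or RBCS1B overlapped between the doses, where 7.27% of all genes tested lay higher without overlap. CT-BMY and RBCS1B were named by their small p, so this gap is no separate support.

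The remaining genes that passed belong to none of the lists. AT3G28270, a putative transmembrane protein, had 10.8, 8.46 and 10.6 CPM at 10 µM (17, 28 and 48 counts), against 1.17, 1.93 and 1.92 CPM at 0.1 µM (4, 5 and 5 counts), a change of 2.55 ± 0.43 (adjusted p = 0.0216). FTM1 (AT1G43800), a stearoyl-acyl carrier protein desaturase that puts a double bond into fatty acids, had 8.85, 11.5 and 5.76 CPM at 10 µM, against 20.3, 56.0 and 36.5 CPM at 0.1 µM. It fell by 2.12 ± 0.37 on the log2 scale (adjusted p = 0.0216), with values at 0.1 µM spread from 20.3 to 56.0 CPM. AT5G57625, a CAP-domain protein of the PR-1 type, had 11.4, 17.5 and 13.1 CPM at 10 µM, against 45.8, 35.2 and 46.1 CPM at 0.1 µM (-1.57 ± 0.28, adjusted p = 0.0271).

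AT1G36060, an AP2-type DNA-binding protein, had 12.0, 9.37 and 9.98 CPM at 10 µM, against 24.7, 24.0 and 26.5 CPM at 0.1 µM, a change of -1.28 ± 0.22 (adjusted p = 0.0216). AT1G62510, a lipid-transfer-type protein, had 102.5, 124 and 91.3 CPM at 10 µM, against 243, 281 and 214 CPM at 0.1 µM, a change of -1.22 ± 0.19 (adjusted p = 0.0216). The doses did not overlap in any of these 5 genes. Over all genes tested, 7.27% lay higher at 10 µM without overlap and 7.31% lower. ATCG00500, a chloroplast-encoded gene, had 7.59, 28.4 and 5.54 CPM at 10 µM, against 2.94, 0.773 and 1.92 CPM at 0.1 µM and did not pass (adjusted p = 0.112).

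The other stress lists held no call, and 30 of the 33 gene lists were without one. In 8 of these no member reached an unadjusted p under 0.05. Heat shock genes were among these, with 0 of 15 at that level and a median log2 change of 0.14. Ethylene synthesis and signalling had 0 of 10, with a median of -0.03, the salicylate and immune list had 0 of 9, and mitochondrial dysfunction had 0 of 5. Antioxidant enzymes and ferritins had 2 higher and 1 lower of 20, with a median of 0.01, and xenobiotic detoxification had 3 higher and 0 lower of 18, with a median of 0.06. Early pattern-triggered genes had 5 higher and 1 lower of 27 (median 0.15), and abscisic acid, dehydration and cold had 4 higher and 1 lower of 18 (median 0.19). Counts at this level are to be read beside the 3.37% and 3.15% of all genes. A miss of the threshold does not show that the doses acted alike on these genes.

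Transcripts of the chloroplast genome took 0.493%, 0.545% and 0.688% of counts at 10 µM, against 0.358%, 0.553% and 0.508% at 0.1 µM. The difference of the means was 0.103 percentage points, or 0.0466 without 10 µM replicate 3 and 0.0456 without 0.1 µM replicate 1 (exact 2-sided permutation test, p = 0.5, adjusted over the 2 organelles p = 0.6). The mitochondrial genome took 1.1%, 1.25% and 0.771% at 10 µM, against 1.08%, 0.962% and 1.45% at 0.1 µM, a difference of -0.127 percentage points (exact permutation p = 0.6, adjusted p = 0.6), and of -0.00964 when the 10 most abundant genes were left out. The doses overlapped in both shares, and the exact test of 3 libraries against 3 cannot go below p = 0.1. By gene, 0 of 39 tested chloroplast genes passed in edgeR, and 9 were higher and 2 lower at an unadjusted p under 0.05 (median 0.18). Of 14 tested mitochondrial genes, 0 were higher and 0 lower at that level (median -0.16). Over all genes tested, 3.37% were higher and 3.15% lower.

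Levels over the dose series did not run steadily with dose in the genes described next, which are shown as levels only. ERF105 averaged 43.9 ± 8.21 CPM in controls, 40.2 ± 5.76 at 0.1 µM, 23.8 ± 3.76 at 1 µM, 133 ± 33.5 at 10 µM and 8.31 ± 2.14 at 100 µM (SD, n = 3 each). EXT10 averaged 6.57 ± 3.26 CPM in controls, 21.9 ± 0.149 at 0.1 µM, 18.9 ± 10.2 at 1 µM, 1.79 ± 0.46 at 10 µM and 8.41 ± 6.78 at 100 µM. LHCB2.1 averaged 132 ± 24.9 CPM in controls, 193 ± 33.7 at 0.1 µM, 348 ± 96.2 at 1 µM, 78.6 ± 11.6 at 10 µM and 443 ± 40.7 at 100 µM. Among the groups plotted, 10 µM held the lowest mean of EXT10, PRP3, LHCB2.1 and AT1G62510 and the highest of ERF105 and CT-BMY. CT-BMY averaged 432 ± 75.0 CPM in controls, 236.5 ± 20.6 at 0.1 µM and 494 ± 149 at 10 µM. Its libraries of 10 µM overlapped those of the controls.

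**Figure D4:**
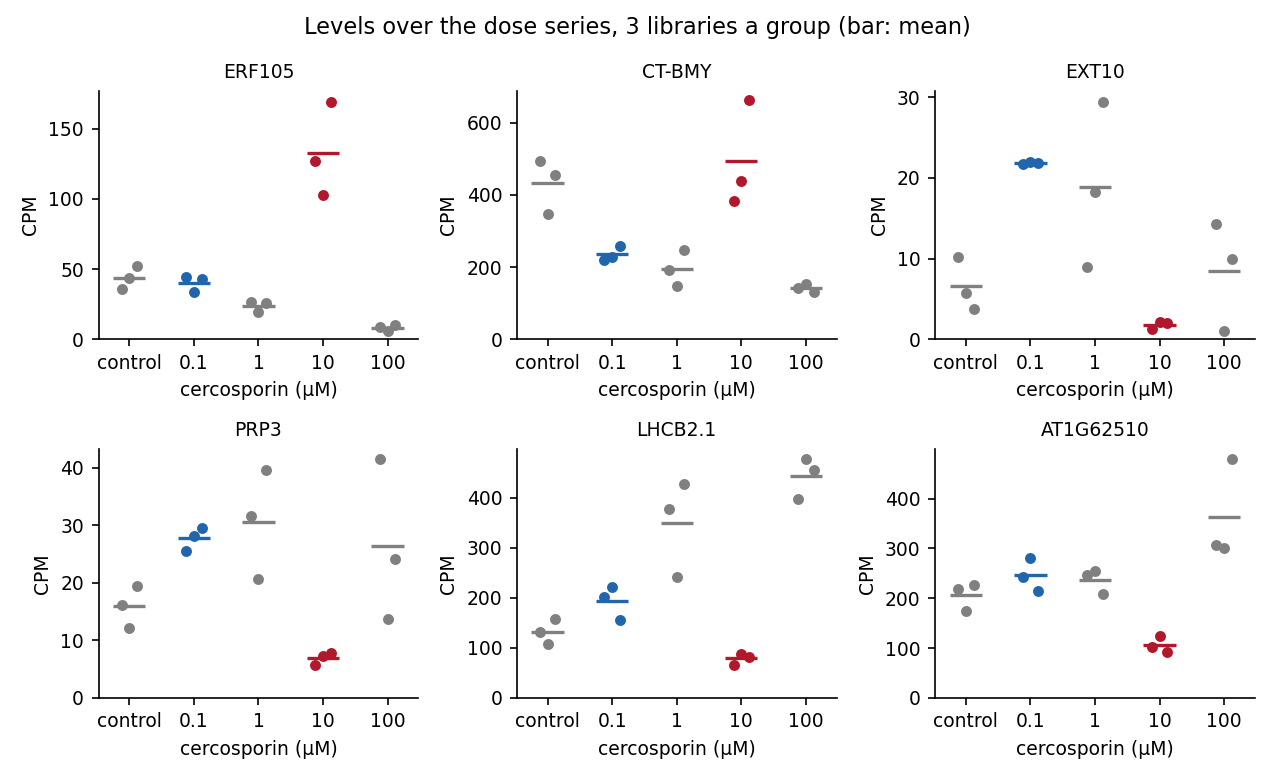
CPM of 6 named genes in controls and at 0.1, 1, 10 and 100 µM cercosporin; points are libraries, bars the mean of 3, with 10 µM in red and 0.1 µM in blue, and axes start at 0. ERF105 is at 103 to 169 CPM at 10 µM and at or under 52.4 CPM in every other library, while EXT10, PRP3, LHCB2.1 and AT1G62510 have their lowest mean at 10 µM.

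The same libraries of 10 µM were set against 1 µM and against the controls in the same fit, and these comparisons share the 10 µM libraries. Against 1 µM, 59 genes were higher (0.569%) and 33 lower (0.318%). ERF105 differed from 1 µM by 2.45 ± 0.23 (adjusted p = 3.31e-05), EXT10 by -3.34 ± 0.56 (adjusted p = 0.00757) and LHCB2.1 by -2.15 ± 0.21 (adjusted p = 4.54e-05). The root hair wall list had 7 of 13 lower there, with a median of -2.16. Against the controls, 1 gene was higher (0.00964%) and 0 were lower. That gene was ERF105, at 1.6 ± 0.21 (adjusted p = 0.00635), and the root hair wall list had a median of -0.87 with 0 calls and 7 of 13 lower at an unadjusted p under 0.05, where 3.01% of all genes tested were lower and 2.39% higher. The 0.1 µM libraries, set against the controls, gave 0 calls in either direction, and the root hair wall list had a median of 0.95 there, with 8 of 13 higher at an unadjusted p under 0.05, beside 2.43% higher and 3.09% lower over all tested genes. Between 1 µM and 0.1 µM edgeR also gave 0 calls, and the median of the list was -0.06. In medians, root hair wall genes were lower at 10 µM and higher at 0.1 µM than in the controls, and no member passed in either of those comparisons.

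The authors' deposited table, which comes from DESeq2 and gives 0.1 µM over 10 µM, called 101 genes at its adjusted p under 0.05. By the authors' deposited table, 52 of these were higher and 49 lower at 10 µM. All 11 genes of the edgeR test were among those of the authors' deposited table. Without the 3 libraries of 100 µM, edgeR called 33 genes between 10 and 0.1 µM, 8 higher (0.0823%) and 25 lower (0.257%) of 9716 tested. That fit called 7 of the root hair wall list lower. Of the 25, 9 are named as extensin-like family proteins in RefSeq, and ESB1 (adjusted p = 0.0346) and TIP2 (adjusted p = 0.0222) were among them. Among the 8 that were higher there were ZAT10, ERF13, CT-BMY, CORI3, RBCS1B and the beta-glucosidase BGLU18 (AT1G52400), which had 65.1, 60.7 and 71.8 CPM at 10 µM and 36.1, 26.7 and 28.0 CPM at 0.1 µM.

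Leaving out 1 library of either dose ended most calls. With 10 µM replicate 1 left out, which stood apart, edgeR called 2 genes (ERF105 and ERF13), 0 of the root hair wall list, and EXT10 stood at -3.37 (adjusted p = 0.0917). With the code digit as a term and without 100 µM, 2 genes were called, RBCS1B and ESM1 (AT3G14210), neither among the 11. There EXT10 changed by -3.20 ± 0.90 (adjusted p = 0.167), PRP3 by -1.41 ± 0.48 (adjusted p = 0.259) and LHCB2.1 by -0.87 ± 0.35 (adjusted p = 0.356). These changes were smaller in size than in the main fit, as were XTH14 (-1.29), AT5G57625 (-1.18) and AT1G62510 (-0.88). Those of EXT6 (-3.19), AT1G36060 (-1.78), FTM1 (-2.22) and AT3G28270 (2.65) were larger, and ERF105 (1.74) was nearly the same. Named genes outside the 11 also moved both ways, such as RBCS1B (2.29) and ZAT10 (0.21).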

How the data were processed

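Bulk MARS-seq libraries, which read transcript 3' ends, were made per the labels' protocols. The tools named in the submitters' processing notes are bcl2fastq (2.17.1.14), cutadapt (1.8.3), STAR, HTSeq and DESeq2. Genome build, annotation and use of strand: not given in the sources used here. The deposited counts are raw and, per the file headers, not filtered on unique molecular identifiers, so amplification copies are included. The authors' columns on a signal scale (counts over size factors) and their regularised log2 columns were not tested. The authors' deposited log2 fold changes and adjusted p-values had group numbers in place of doses, and these were matched by the fold changes.

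Counts of all 15 libraries were fitted with edgeR 4.0.16 in R 4.3.3 (TMM, filterByExpr, quasi-likelihood test, 1 term for group) with the contrast 10 µM minus 0.1 µM and Benjamini-Hochberg adjustment over the genes tested at 0.05. The biological coefficient of variation was 20.6%. In simulated counts the procedure was tested for the recovery of known fold changes. Named genes were all that passed, and up to 6 with the smallest p in each direction that did not, beside list members. Members and lists were chosen with earlier results of these data known. Symbols came from RefSeq (TAIR10.1), which matched 14103 identifiers. A near-identical copy was a match of at least 75 bases at 90% identity between the last 500 bases of transcripts (blastn 2.17.0), and sums over copies were added after the data were seen. Organelle shares were compared with SciPy 1.17.1. Same-numbered replicates did not deviate together (r = 0.125, 0.189 and -0.093), so they were not paired. Alternatives included DESeq2 1.42.0, limma 3.58.1 (voom), other scalings and filters, thinned counts, fewer libraries and leaving out each library.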

Additional observations from a re-analysis of the deposited data

How the results depend on the processing

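The 11 calls of edgeR (2 higher, 9 lower) became 33 (8 and 25) without 100 µM, 44 (18 and 26) with the 6 libraries alone, 42 (12 and 30) by DESeq2 and 18 (6 and 12) by limma-voom, each of which held all 11. The fit with the replicate block gave 16 calls, 5 higher and 11 lower. Without a filter there were 14 calls, 4 of them higher. Counts thinned to the smallest total gave 2 calls (1 and 1), and the code digit term, in the fit without 100 µM, gave 2 (2 and 0). Leaving out 1 library gave 1 to 4 calls, 1 to 2 higher and 0 to 3 lower. ERF105 passed in 17 of 18 alternatives, between 1.5 and 2.2, and no named gene turned its direction. The mitochondrial difference of -0.127 percentage points ranged from -0.232 to 0.0149 when 1 library was left out, and turned to 0.00719 without 10 µM replicate 3 and 0.0149 without 0.1 µM replicate 3, where the cause was not tested. The chloroplast difference of 0.103 ranged from 0.0456 to 0.144. Without a library fewer samples carried the test. Genes near 2 CPM, such as EXT10 and EXT6 at 10 µM, rest on 12 counts or fewer a library, which limits their fold changes.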
